A study of Mus musculus with 9 samples.

Results

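The genes described here encode the proteins of the mitochondrial ribosome, measured by RNA sequencing in mouse bone marrow-derived macrophages (BMDMs). They were chosen by name: every row of the deposited expression table whose symbol begins with Mrpl or Mrps and a number was taken, and pseudogenes were left out. The pattern matched 83 rows, of which 5 were pseudogenes (Mrps36-ps1, Mrps36-ps2, Mrps36-ps3, Mrpl23-ps1 and Mrpl48-ps), leaving 78 genes of the 55335 rows of the table. By the ribosome structures, 51 of the 78 encode proteins of the large subunit and 26 encode proteins of the small subunit. Mrps30 and Mrps18a carry small-subunit symbols but encode large-subunit proteins, and Mrps36 was counted with neither subunit because its product is now assigned to the 2-oxoglutarate dehydrogenase complex. By the names given in ribosome structures, 46 are homologues of bacterial ribosomal proteins and 32 are particular to mitochondria, among them Mrps18a and Mrps18b, which are related to bacterial S18. The 78 genes lie on 17 chromosomes.

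Mitochondrial ribosomes translate the few messenger RNAs of the mitochondrial genome, all of which encode subunits of the respiratory chain and the ATP synthase. Their RNA is encoded in the mitochondrial genome, whereas every one of their proteins is encoded in the nucleus, made in the cytosol and imported. Macrophages stimulated with bacterial products and interferon are known to turn away from mitochondrial respiration and toward glycolysis, so the level of this machinery is of interest in that setting.

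The BMDMs were wild type (WT), grown with the growth factor M-CSF from the bone marrow of male C57BL/6 mice aged 4 to 6 weeks, and formed 3 groups of 3 libraries. Cells of the Control group were kept in medium alone, those of the Model group were given LPS, which activates the receptor TLR4, at 1 µg/mL and the cytokine IFN-γ at 30 ng/mL, and those of the M+AnxA5 group had recombinant annexin A5 (AnxA5), a phospholipid-binding protein, added to these stimuli, all for 6 hours. The AnxA5 concentration of the sequenced cells is not given in the sources used here. Whether each library stands for its own culture or animal is not stated, and the p-values therefore measure only the spread between libraries, which may be technical.

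Expression was deposited as FPKM, fragment counts scaled to transcript length and library size, so levels can be compared between genes per unit of length. The estimated depth was 25.9M to 36.1M fragments per library (M, mega), so that a single fragment on 1 kb of transcript counts as 0.0277 to 0.0386 FPKM, and libraries of the same group correlated at 0.985 to 0.992 across genes. All 10 macrophage markers listed were detected, with a summed level of 13905 to 14966 FPKM in Control, 7834 to 8799 in Model and 7154 to 8054 in M+AnxA5. Most of this difference was Lyz2, with means of 12129, 6388 and 5792 FPKM, whereas Adgre1 (329, 606 and 475), Mertk (47.5, 141.9 and 141.6) and Cd14 (63.5, 200.2 and 157.3) were higher in stimulated cells. Of 7 neutrophil markers, 6 had a mean of at least 1 FPKM over the 9 libraries, and Ly6g was at most 0.109 FPKM. The neutrophil sum lay at 245 to 323, 276 to 362 and 301 to 317 FPKM in the same order of groups. Mpo (means of 4.33, 0.114 and 0.211) and Elane (6.22, 0.127 and 0.12) reached 1 FPKM only in Control. Ngp (65.3, 56.4 and 49.9) was lower in stimulated cells. Camp (5.58, 11.6 and 12.8), S100a8 (65.8, 89.4 and 95.7) and S100a9 (132.9, 151.4 and 153.2) had higher means there. Stromal markers summed to 96.2 to 160.1, 71.9 to 110.2 and 62.3 to 110.8 FPKM. Library 2 of each group held the largest share of ribosomal RNA fragments of its group (7.47%, 3.16% and 3.59% of summed FPKM), and results without these 3 libraries are given where they differ. Lists of other cell types also moved with the groups. Dendritic cell markers (1 of 3 with a mean of at least 1 FPKM) summed to 0.097 to 0.219 FPKM in Control, 4.62 to 5.34 in Model and 3.01 to 3.44 in M+AnxA5, nearly all of it Xcr1, with Flt3 at most 0.022. Endothelial markers (2 of 3) summed to 3.15 to 3.48, 5.03 to 5.96 and 7.35 to 8.45 FPKM, which was Kdr (means of 1.18, 3.64 and 6.51), while Pecam1 (1.36, 1.23 and 1.08) and Cdh5 (0.817, 0.576 and 0.443) went the other way. The remaining lists held no marker with a mean of 1 FPKM over the 9 libraries. By group, the means of Cd79b (2.259 FPKM) and Cd4 (1.179) were above 1 in Control and that of Mcpt8 (1.255) in M+AnxA5. B cell markers summed to 2.102 to 2.519 FPKM in Control and 0.191 to 0.292 in Model, T cell markers to 0.924 to 1.59 and 0.388 to 0.856, NK cell markers to 0.361 to 0.536 and 0.017 to 0.069, and mast cell and basophil markers to 0.384 to 0.864 and 1.02 to 2.04. Erythroid markers summed to 0.265 to 0.736 FPKM in Model and 0.905 to 1.37 in M+AnxA5. The part of all these markers in the results was not tested. In bulk RNA, fewer cells of a type and less RNA per cell cannot be told apart.

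The genes of this set share no single promoter, and 4 start regions are shown, 3 of genes with lower levels in stimulated cells under every scaling tried (Mrps25, Mrpl42 and Mrpl33) and 1 of a gene called higher with M+AnxA5 against Control (Mrpl27). Each is a 300-base window around the transcript start, given 5′ to 3′ on the strand of the gene, from RefSeq on build GRCm38.p6. The windows lie at chr6:92183974-92184273 for Mrps25 (minus strand), chr10:95501900-95502199 for Mrpl42 (minus), chr5:31613701-31614000 for Mrpl33 (plus) and chr11:94653541-94653840 for Mrpl27 (plus). In the annotation used for gene positions (GENCODE M21), Mrpl33 runs from 31596935 to 31664384, so its RefSeq window lies inside the gene and not at that start. Capitals mark letters that match 1 of 3 strings known from promoters of nuclear genes for mitochondria, searched on both strands: GCATGCG, the core of the NRF1 site (CGCATGC on the other strand), CCGGAAG, a core bound by the ETS factor GABP (CTTCCGG on the other strand), and GATGGCG, a core bound by YY1 (CGCCATC on the other strand). No string holds another.
Mrps25: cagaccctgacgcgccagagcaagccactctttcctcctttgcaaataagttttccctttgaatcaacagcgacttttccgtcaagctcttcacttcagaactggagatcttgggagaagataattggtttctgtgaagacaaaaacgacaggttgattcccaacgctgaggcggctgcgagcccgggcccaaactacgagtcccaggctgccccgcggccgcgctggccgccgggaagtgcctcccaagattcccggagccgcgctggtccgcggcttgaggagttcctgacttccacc
Mrpl42: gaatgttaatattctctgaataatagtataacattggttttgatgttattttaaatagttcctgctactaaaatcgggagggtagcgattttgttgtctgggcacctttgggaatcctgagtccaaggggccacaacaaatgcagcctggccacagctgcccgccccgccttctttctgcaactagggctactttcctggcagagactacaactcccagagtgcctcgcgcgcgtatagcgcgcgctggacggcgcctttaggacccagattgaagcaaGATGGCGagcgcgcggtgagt
Mrpl33: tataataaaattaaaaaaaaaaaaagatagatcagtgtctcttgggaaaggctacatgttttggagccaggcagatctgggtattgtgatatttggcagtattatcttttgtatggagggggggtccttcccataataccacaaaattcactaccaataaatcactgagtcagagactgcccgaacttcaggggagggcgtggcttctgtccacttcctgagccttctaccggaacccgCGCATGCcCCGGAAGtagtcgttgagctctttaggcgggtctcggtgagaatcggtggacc
Mrpl27: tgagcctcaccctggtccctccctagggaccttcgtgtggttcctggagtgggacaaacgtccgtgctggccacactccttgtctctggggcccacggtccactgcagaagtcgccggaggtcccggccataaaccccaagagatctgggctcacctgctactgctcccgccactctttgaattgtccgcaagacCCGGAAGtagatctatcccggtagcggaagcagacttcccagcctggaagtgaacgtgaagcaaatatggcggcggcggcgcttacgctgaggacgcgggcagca
The Mrps25 window held none of the strings, Mrpl42 held the YY1 letters, Mrpl33 held the NRF1 letters 1 base away from the GABP letters, and Mrpl27 held the GABP letters. A match describes the letters and shows no binding.

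Of the 78 genes, 69 had a RefSeq window, and Mrpl54 and Mrpl38, both described below, were among the others. The GABP letters were in 25 of these 69 windows (36.23%, against 9.12% of 27025 windows of all genes). The NRF1 letters were in 8 windows (11.59%, against 3.64%) and the YY1 letters in 8 (11.59%, against 3.66%). At least 1 string was in 35 of the 69 (50.72%, against 14.94%). The windows of all genes were not filtered by expression or gene type, so they are not matched to the set.

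The genes were expressed at moderate levels in every library, and all 78 passed the filter of at least 1 FPKM in 3 of the 9 libraries. Group means ran from 1.42 to 39.7 FPKM in Control with a median of 7.14, from 0.82 to 23.6 in Model with a median of 5.59, and from 0.79 to 25.3 in M+AnxA5 with a median of 5.60. The summed FPKM of the set was 697, 701 and 713 in the Control libraries, 538, 516 and 521 in the Model libraries, and 523, 509 and 502 in the M+AnxA5 libraries. All 3 Control libraries were above all others, and the ranges of Model and M+AnxA5 overlapped. As a share of all summed FPKM, the set made up 0.225% ± 0.00800 (SD, n = 3) in Control, 0.178% ± 0.00517 in Model and 0.172% ± 0.00452 in M+AnxA5.

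Although the ribosome holds its proteins in fixed ratios, the messenger RNAs of the set spanned a 27.3-fold range of mean level. The highest were Mrps21 and Mrpl54, followed by Mrpl27, Mrpl34 and Mrpl18, which together made 18.9% of the set's summed level, and 19 of the 78 genes made 50% of it. Mrpl18, the homologue of the bacterial protein that holds the 5S RNA, had 20.7, 22.7 and 23.1 FPKM in Control, 15.1, 14.8 and 16.4 in Model and 15.1, 15.8 and 14.7 in M+AnxA5. Mrpl34, a small homologue of a bacterial protein, had 20.6, 26.5 and 30.3 FPKM in Control against 15.9995, 15.9 and 16.1 in Model and 15.4, 16.9 and 16.4 in M+AnxA5. Both were higher in each Control library than in any other, and the Mrpl34 level was less even among the Control libraries than in the other groups.

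At the low end stood Mrps35, Mrpl48 and Mrpl23. Mrps35, a small-subunit protein particular to mitochondria, had 1.43, 1.39 and 1.45 FPKM in Control, 0.81, 0.83 and 0.82 in Model and 0.82, 0.75 and 0.80 in M+AnxA5. Mrpl48, a large-subunit protein, had 1.86, 1.81 and 2.22 FPKM in Control, 1.16, 1.16 and 1.33 in Model and 1.11, 1.21 and 1.15 in M+AnxA5. In both, the Control libraries lay apart from the rest. The number of genes of the set under 5 FPKM was 29 in Control, 35 in Model and 36 in M+AnxA5, and the number at 10 FPKM or more was 31, 18 and 14. The order of levels was largely kept between groups, with a Spearman rho across the 78 genes of 0.93 between Control and Model means and 0.99 between Model and M+AnxA5 means, given as a description, since genes of the same libraries are not independent replicates. The median coefficient of variation within a group was 6.09% in Control, 7.65% in Model and 5.76% in M+AnxA5.

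**Figure D1:**
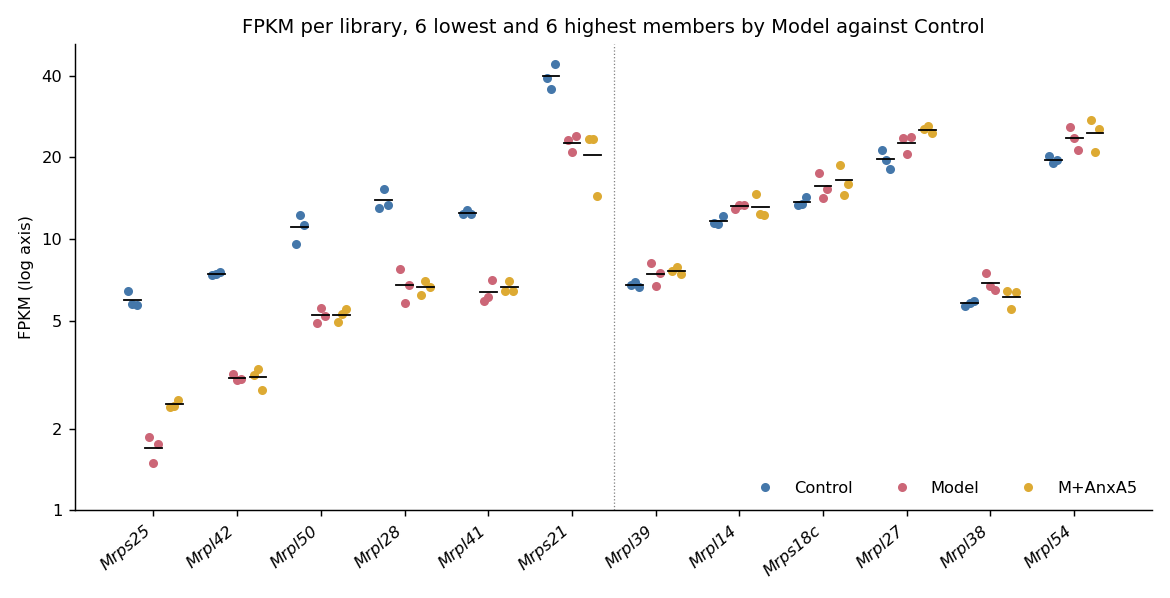
FPKM per library (log axis) of the 6 genes with the lowest and the 6 with the highest log2 fold change of Model against Control, taken from genes whose mean reached 5 FPKM in either group; each point is 1 library, each line the mean of 3, and colours stand for Control, Model and M+AnxA5. Mrps25 went from 5.97 FPKM in Control to 1.70 in Model and 2.46 in M+AnxA5, while Mrpl54 went from 19.6 to 23.6 and 24.7.

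To see how LPS with IFN-γ bears on the set, Model was compared with Control. Calls required a fold change over 1.2 on the log2(FPKM + 1) scale, which understates the change of low genes, and a limma p-value adjusted over all 11657 genes tested under 0.05. With FPKM as deposited, 51 of the 78 genes fell (65.4% of the set), where 60.3% of all genes tested were called lower, and none rose, where 16.5% of all genes were called higher. At an unadjusted p under 0.05 the counts were 58 lower and 4 higher (83.4% of all genes passed in either direction). Without the 3 libraries numbered 2, limma called 48 of the 77 genes then tested lower, and 5690 of all 10383 genes. The median log2 fold change of the set was -0.41 and that of all genes tested was -0.45, so that as a set these genes were shifted about as far as the whole table, and with upper-quartile, quantile or median-ratio scaling the median of the set turned to 0.05, 0.01 and 0.07. The genes differed less among themselves than genes at large: the SD of the log2 fold change was 0.33 over the set and 1.10 over all genes, and 27 of the 78 lay within a fold of 1.2. Libraries of the 2 groups did not overlap in 55 genes that were lower in Model (65.2% of all genes tested did so) and in 4 that were higher (18.6%), which were Mrpl14, Mrpl38, Mrpl54 and Mrpl55. The Control level of a gene bore little relation to its change (Spearman rho -0.05 across the 78 genes, as a description).

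**Figure D2:**
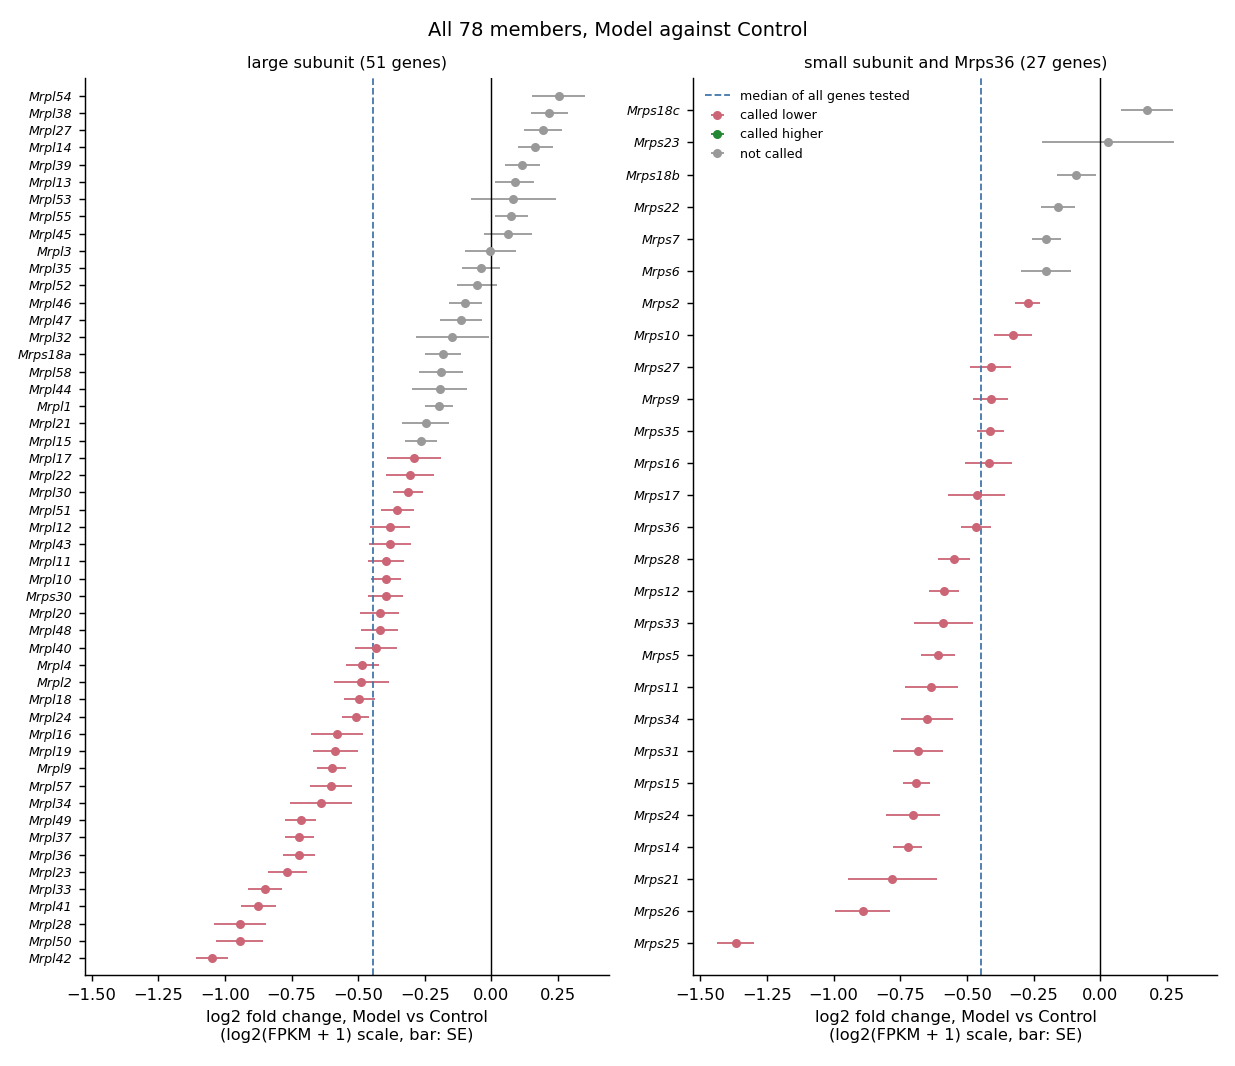
The log2 fold change of Model against Control on the log2(FPKM + 1) scale (x axis) for each of the 78 genes, with the SE as a bar, for large-subunit genes on the left and small-subunit genes with Mrps36 on the right; the dashed line is the median of all genes tested, -0.45. The genes spread on both sides of that line, from -1.37 for Mrps25 to 0.25 for Mrpl54, and none was called higher.

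Of the genes that fell, Mrps25 stood lowest. It encodes a small-subunit protein particular to mitochondria and lies on chromosome 6 from 92169525 to 92184033 (minus strand, GRCm38). Its level was 6.43, 5.76 and 5.72 FPKM in Control against 1.86, 1.49 and 1.75 in Model, a log2 fold change of -1.37 ± 0.07 (SE, limma adjusted p = 1.41e-07). The Control libraries were all above 5 FPKM and the Model libraries all under 2. Its exons overlap those of Nr2c2 on the other strand, which stood at 2.51 FPKM in Control and 1.62 in Model, and whether the counting used strand is not stated.

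Next came 4 large-subunit genes, the lowest whose mean reached 5 FPKM in either group. Mrpl42, which encodes a protein particular to mitochondria, had 7.37, 7.46 and 7.54 FPKM in Control and 3.18, 3.02 and 3.06 in Model (log2 fold change -1.05 ± 0.06 SE, adjusted p = 2.956e-07). Its libraries were nearly alike within each group and the groups lay far apart. Mrpl50, another such protein, had 9.57, 12.3 and 11.3 FPKM in Control and 4.90, 5.58 and 5.21 in Model (-0.95 ± 0.09, adjusted p = 7.772e-06). Mrpl28, the homologue of bacterial L28, had 13.0, 15.3 and 13.4 FPKM in Control and 7.77, 5.80 and 6.77 in Model (-0.94 ± 0.10, adjusted p = 1.642e-05). For both, the highest Model library was well under the lowest Control library. Mrpl41, a protein near the tunnel exit of the large subunit, had 12.4, 12.8 and 12.4 FPKM in Control and 5.91, 6.14 and 7.08 in Model (-0.88 ± 0.07, adjusted p = 1.968e-06). Mrps21, the homologue of bacterial S21 and the highest gene of the set, had 39.2, 35.8 and 44.2 FPKM in Control and 23.2, 20.9 and 24.0 in Model (-0.78 ± 0.17, adjusted p = 0.001991). The groups did not overlap for either gene, but for Mrps21 the call was lost with upper-quartile scaling (-0.23, adjusted p = 0.2453) and with median-ratio scaling (-0.21, adjusted p = 0.2801).

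At the other end, the 6 highest genes were not called, and their mean levels were above those of Control. Mrpl54, a large-subunit protein particular to mitochondria, had 20.3, 19.1 and 19.5 FPKM in Control and 25.8, 23.6 and 21.4 in Model (log2 fold change 0.25 ± 0.10 SE, adjusted p = 0.03927), which passed the p threshold and not the fold threshold. Mrpl38, a large-subunit protein of the family that binds phosphatidylethanolamine, had 5.66, 5.83 and 5.89 FPKM in Control and 7.51, 6.73 and 6.48 in Model (0.22, adjusted p = 0.0163). All Model libraries were above all Control libraries in both genes. Mrpl27, whose bacterial homologue reaches the peptidyl transferase centre, had 21.3, 19.5 and 18.1 FPKM in Control and 23.5, 20.6 and 23.7 in Model (0.19, adjusted p = 0.0319). Mrps18c, 1 of 3 mammalian homologues of bacterial S18, had 13.4, 13.5 and 14.2 FPKM in Control and 17.5, 14.1 and 15.3 in Model (0.18, adjusted p = 0.1227). The libraries of both groups overlapped in Mrpl27 and in Mrps18c. Mrpl14, the homologue of bacterial L14 at the face that meets the small subunit, had 11.4, 11.4 and 12.2 FPKM in Control and 12.9, 13.4 and 13.3 in Model (0.17, adjusted p = 0.04281). Mrpl39, a large-subunit protein related to threonyl-tRNA synthetase, had 6.75, 6.94 and 6.67 FPKM in Control and 8.17, 6.70 and 7.52 in Model (0.12, adjusted p = 0.1289). The Mrpl14 libraries did not overlap and the Mrpl39 libraries did. Mrpl54 was also called higher when Model replicate 3 was left out.

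The direction of most genes depended on the scaling. With TPM, 3 genes of the set were called higher and 48 lower, where 18.2% and 57% of all genes were. With upper-quartile scaling 18 were higher and 9 lower (31.8% and 29.9% of all genes), and with quantile normalization 17 and 20 (24.9% and 36.6%). Median-ratio scaling, chosen after seeing the data, gave 20 higher and 9 lower (32.5% and 29%). No gene was called in both directions under different scalings. Lower under all 5 scalings were 8 genes, Mrpl23, Mrpl28, Mrpl33, Mrpl41, Mrpl42, Mrpl50, Mrps25 and Mrps26, which is 10.3% of the set where 27% of all genes tested were lower under all 5. Higher under all 5 was none, where 16.1% of all genes were. The 6 highest genes, not called as deposited, were each called higher with upper-quartile, quantile and median-ratio scaling, and Mrpl27, Mrpl38 and Mrpl54 also with TPM. For Mrps25 the log2 fold change was -1.37 as deposited and -1.57, -0.93, -0.93 and -0.91 with TPM, upper-quartile, quantile and median-ratio scaling.

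**Figure D3:**
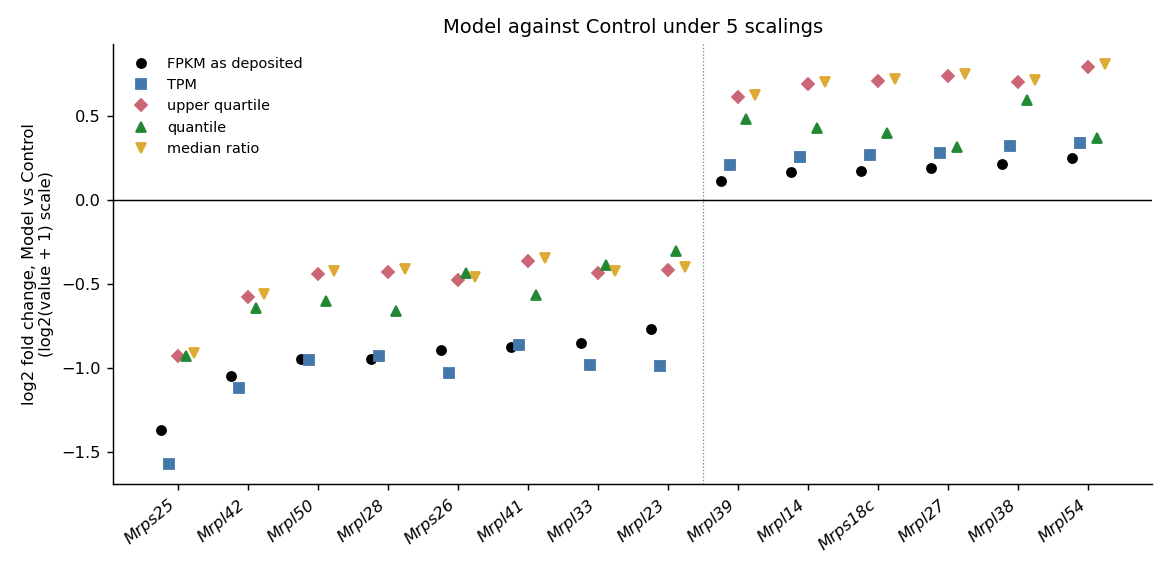
The log2 fold change of Model against Control (y axis, log2(value + 1) scale) under 5 scalings, marked by shape and colour, for the 8 genes lower under all 5 (left of the dotted line) and the 6 highest genes by the deposited values (right). Left of the line every value is below 0, with Mrps25 between -1.57 and -0.91, and right of it every value is above 0.

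Of the 8, the 3 not yet described had low levels. Mrpl33, the homologue of bacterial L33, had 3.63, 4.11 and 3.83 FPKM in Control and 1.71, 1.75 and 1.62 in Model (log2 fold change -0.85, limma adjusted p = 2.068e-06). Mrps26, a small-subunit protein particular to mitochondria, had 3.95, 4.01 and 4.42 FPKM in Control and 1.68, 1.84 and 1.76 in Model (-0.89, adjusted p = 3.565e-05). In both, each Model library was at under 50% of the lowest Control library. Mrpl23, the homologue of bacterial L23 at the tunnel exit, had 2.65, 2.097 and 2.36 FPKM in Control and 1.09, 0.909 and 0.940 in Model (-0.77, adjusted p = 1.036e-05). A 507-base stretch of it is shared without a difference with the pseudogene Mrpl23-ps1, which was listed at a mean of 7.98 FPKM in Control and 3.38 in Model, so reads of the 2 cannot be told apart there and the Mrpl23 level is uncertain. Mrpl33 overlaps Gm43809 on the same strand and Mrps26 overlaps 4930473A02Rik on the opposite strand.

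Near copies elsewhere in the genome were found for 17 of the 78 genes, which share a stretch of at least 200 bases with at least 95% identity with a gene that does not overlap them, in each case a pseudogene. Among the genes above, Mrpl27 has such a copy in Gm6304 (98.88% identity, a mean of 1.047 FPKM in Control and 0.99 in Model) and Mrps21 in Gm6181 (97.35%, 2.25 and 0.73 FPKM). The copies of Mrpl42 in Gm6419 (96.9%), of Mrps25 in Gm42933 (98.02%) and of Mrpl41 in Gm6434 (97.85%) stood at 0.41, 0.16 and at most 0.013 FPKM in Control. No such copy was found for Mrpl28, Mrpl50, Mrpl54 or Mrpl38. Apart from copies, 28 of the 78 overlap an exon of another gene on the opposite strand and 8 on the same strand, and some genes have both a copy and an overlap.

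By role, 30 of 51 large-subunit genes fell (58.8%), with a median log2 fold change of -0.38, and 20 of 26 small-subunit genes (76.9%), with a median of -0.51, where 60.3% of all genes tested fell and their median was -0.45. No overlap with lower Model values was seen in 33 large-subunit and 21 small-subunit genes (65.2% of all genes tested), and the 4 genes with higher Model values and no overlap were all of the large subunit (18.6% of all genes). The summed FPKM of the small subunit over that of the large subunit, which scaling a library by a single factor does not change, was 0.477, 0.448 and 0.453 in Control, 0.407, 0.414 and 0.406 in Model and 0.399, 0.409 and 0.368 in M+AnxA5. Every Control library was above every other library in this ratio. Without Mrps21 and Mrps23, which had the widest SEs of the set, the ratio was 0.353, 0.353 and 0.342 in Control, 0.314, 0.320 and 0.309 in Model and 0.308, 0.312 and 0.308 in M+AnxA5, again with no overlap between Control and Model. No test of the difference between the subunits was run. Bacterial homologues and proteins particular to mitochondria had like values, with 32 of 46 (69.6%) and 19 of 32 (59.4%) lower and medians of -0.42 and -0.40.

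Ratios of 2 genes within a library are not changed by scaling a library by a single factor. The 2 pairs given were each made of a gene with a low and a gene with a high fold change after their values were seen, so that the direction from Control to Model is set by the choice and supports nothing. Mrps25 over Mrpl27 was 0.301, 0.295 and 0.316 in Control, 0.0790, 0.0727 and 0.0739 in Model and 0.0951, 0.0933 and 0.104 in M+AnxA5. All 3 groups were apart in this ratio. Mrpl42 over Mrpl54 was 0.364, 0.391 and 0.387 in Control, 0.124, 0.128 and 0.143 in Model and 0.115, 0.159 and 0.109 in M+AnxA5, so that Control stood apart and the other groups overlapped.

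**Figure D4:**
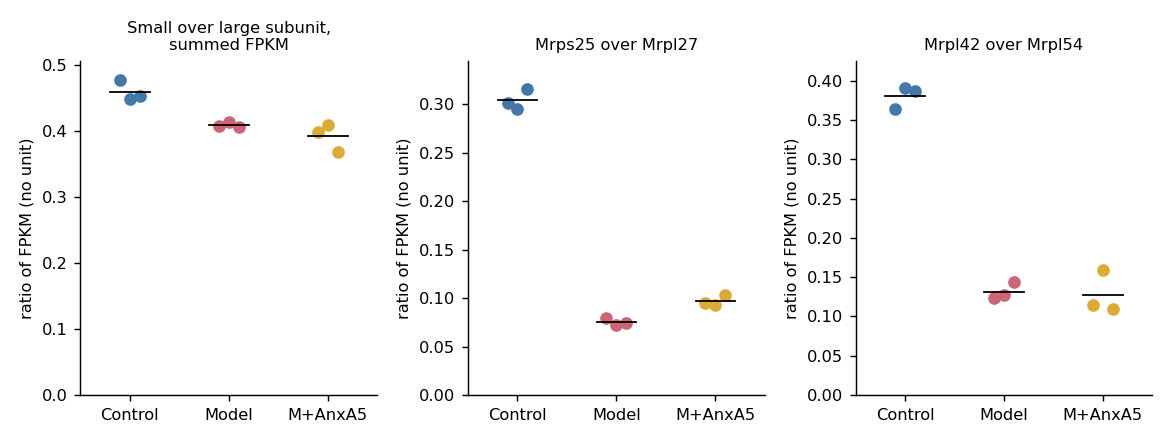
Ratios of FPKM within a library (y axes, no unit, starting at 0) for the summed small over the summed large subunit, Mrps25 over Mrpl27, and Mrpl42 over Mrpl54; each point is 1 library and each line the mean of 3. In each panel the 3 Control libraries sit above the 3 Model libraries, and for Mrps25 over Mrpl27 the M+AnxA5 libraries (0.0933 to 0.104) sit above Model (0.0727 to 0.0790).

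Model and Control did not differ by both thresholds in 27 genes, of which 6 are described above. Among the others, Mrps23, a small-subunit protein particular to mitochondria, had 18.5, 9.30 and 9.46 FPKM in Control and 12.01, 12.9 and 11.3 in Model. Control replicate 1 stood far above the other Control libraries, and the SE of its log2 fold change (0.25) was the widest of the set. Mrpl3, the homologue of bacterial L3, stood at a mean of 4.37 FPKM in Control and 4.38 in Model. The other genes not called, beside the 6 highest, were Mrpl1, Mrpl13, Mrpl15, Mrpl21, Mrpl32, Mrpl35, Mrpl44, Mrpl45, Mrpl46, Mrpl47, Mrpl52, Mrpl53, Mrpl55, Mrpl58, Mrps6, Mrps7, Mrps18a, Mrps18b and Mrps22, with log2 fold changes between -0.26 and 0.09.

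To see whether AnxA5 bears on the set in stimulated cells, M+AnxA5 was compared with Model. One gene rose, Mrps25, where 1.95% of all genes tested were called higher, and none fell, where 0.815% of all genes were called lower. By limma at an unadjusted p under 0.05 the counts were 3 higher and 7 lower of 78, and 17% of all genes tested passed that threshold in either direction. Mrps25 had 1.86, 1.49 and 1.75 FPKM in Model and 2.41, 2.43 and 2.55 in M+AnxA5, a log2 fold change of 0.36 ± 0.07 (SE, adjusted p = 0.029). All 3 M+AnxA5 libraries were above all Model libraries and under 50% of every Control library. The call held under all 5 scalings, as calls higher did for 1.41% of all genes and calls lower for 0.583%, and Nr2c2 on the other strand had a mean of 1.62 FPKM in Model and 1.199 in M+AnxA5, a log2 fold change of -0.25 (adjusted p = 0.2113). The Mrps25 call was lost without Model replicate 2 (adjusted p = 0.0974) or 3 (0.0760), without M+AnxA5 replicate 1 (0.0670), 2 (0.0905) or 3 (0.1145), without the 3 libraries numbered 2 (0.272), with a replicate block (0.0591), with only the 6 libraries of both groups in the fit (0.0554), and with no filter on low values (0.0701), while the log2 fold change stayed between 0.30 and 0.51 in all alternatives.

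The other 77 genes were not called, and 75 of the 78 lay within a fold of 1.2. The median log2 fold change of the set was -0.03 and that of all genes was -0.02, with 54 of the 78 below 0 (56.1% of all genes tested were). Libraries did not overlap in 14 genes that were lower with AnxA5 (14.2% of all genes tested), Mrpl1, Mrpl4, Mrpl15, Mrpl35, Mrpl38, Mrpl46, Mrps5, Mrps7, Mrps9, Mrps17, Mrps22, Mrps23, Mrps27 and Mrps30, and in 4 that were higher (10.6%), Mrpl27, Mrpl51, Mrps18a and Mrps25. By subunit these were 7 lower and 3 higher of 51 large-subunit genes and 7 lower and 1 higher of 26 small-subunit genes.

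**Figure D5:**
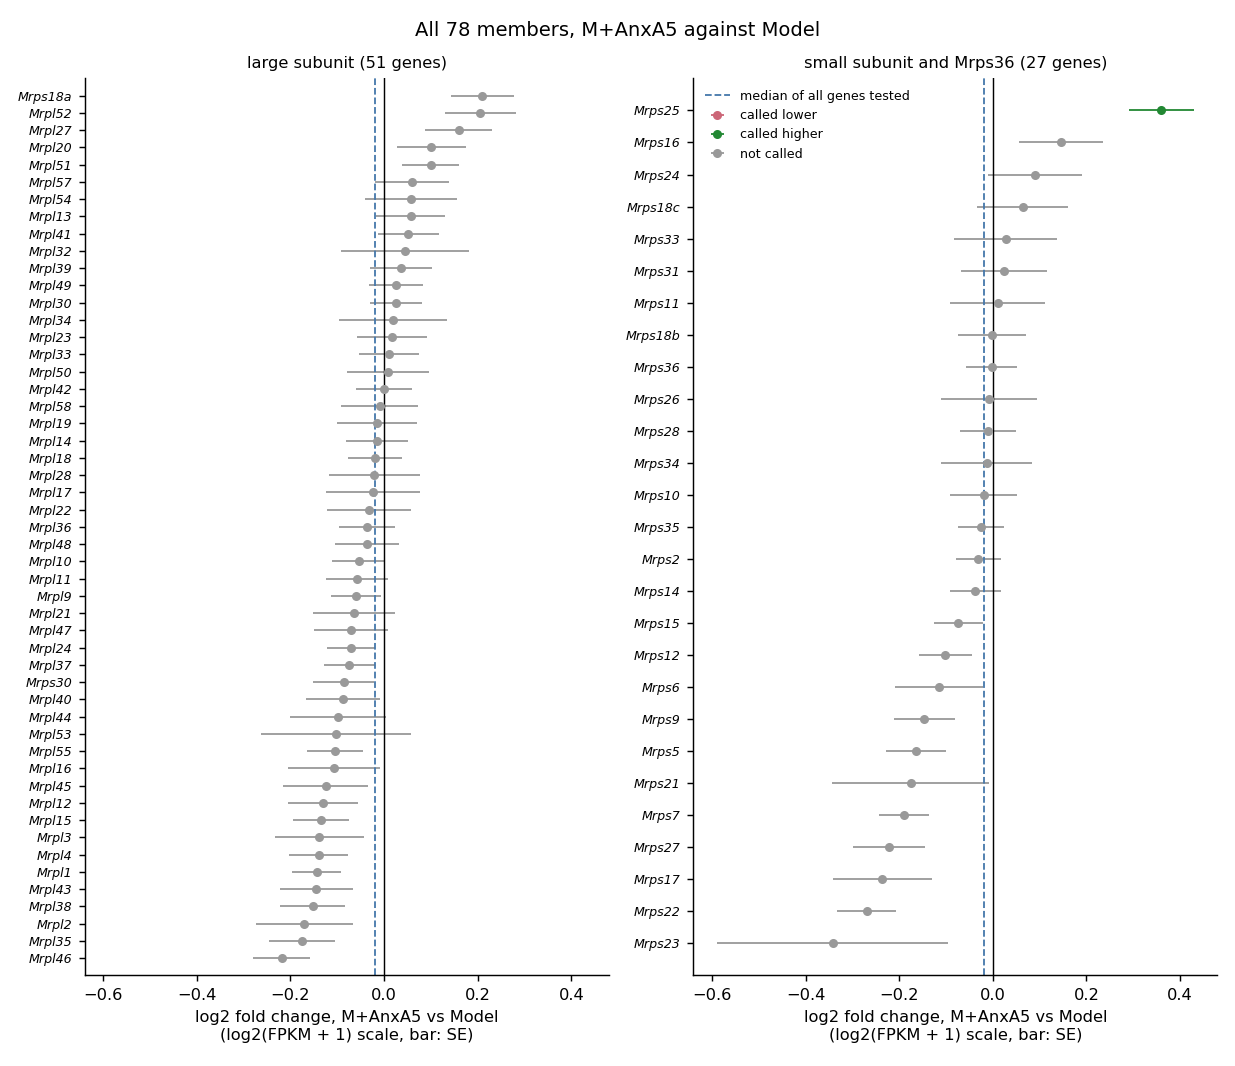
The log2 fold change of M+AnxA5 against Model on the log2(FPKM + 1) scale (x axis) for each of the 78 genes, with the SE as a bar, for large-subunit genes on the left and small-subunit genes with Mrps36 on the right; the dashed line is the median of all genes tested, -0.02. Mrps25, at 0.36, is the only gene called, and the others lie between -0.34 and 0.21.

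Mrps22, Mrpl46 and Mrps7 had the lowest adjusted p-values of the genes below 0. Mrps22, a small-subunit protein whose loss causes a mitochondrial disease in humans, had 2.24, 2.55 and 2.15 FPKM in Model and 1.72, 1.71 and 1.81 in M+AnxA5 (log2 fold change -0.27, limma adjusted p = 0.0627). Mrpl46, a large-subunit protein particular to mitochondria, had 7.13, 6.59 and 6.64 FPKM in Model and 5.77, 5.65 and 5.65 in M+AnxA5 (-0.22, adjusted p = 0.1017). Mrps7, the homologue of bacterial S7, which starts assembly of a domain of the small subunit, had 11.3, 10.5 and 11.1 FPKM in Model and 10.2, 9.27 and 9.03 in M+AnxA5 (-0.19, adjusted p = 0.102). All 3 were lower in every library with AnxA5, and none passed the adjusted threshold. Mrps27, a small-subunit protein with pentatricopeptide repeats, had 5.497, 6.25 and 5.20 FPKM in Model and 4.70, 4.35 and 5.04 in M+AnxA5 (-0.22, adjusted p = 0.1769). Mrps23 had 10.1, 11.299 and 7.01 FPKM in M+AnxA5, under its Model libraries, of which the lowest was at 11.3216 (-0.34, adjusted p = 0.5377). Mrps21 had 23.3, 23.5 and 14.5 FPKM in M+AnxA5 (-0.18), where M+AnxA5 replicate 3 stood apart and its omission turned the value to 0.04. Mrpl2, the homologue of bacterial L2, had 9.89, 9.26 and 12.7 FPKM in Model and 9.21, 8.94 and 9.57 in M+AnxA5 (-0.17).

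On the higher side, Mrps18a, a large-subunit protein related to bacterial S18, had 4.27, 4.38 and 5.00 FPKM in Model and 5.43, 5.51 and 5.30 in M+AnxA5 (log2 fold change 0.21, limma adjusted p = 0.1485). Mrpl52 had 16.5, 14.7 and 13.7 FPKM in Model and 18.5, 16.3 and 17.5 in M+AnxA5 (0.21, adjusted p = 0.2083). Mrpl27 had 25.3, 26.0 and 24.6 FPKM in M+AnxA5, each above its Model libraries (0.16). Mrps18a and Mrpl27 did not overlap between the groups, and Mrpl52 did. For Mrpl20 (0.10), Mrpl51 (0.10) and Mrps24 (0.09) the log2 fold changes were smaller still, and for Mrps24 the value turned to -0.04 without M+AnxA5 replicate 2.

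M+AnxA5 was also compared with Control. The comparison shares its libraries with the other 2, so it gives no separate support to them. As deposited, 58 of the 78 genes were lower (61.1% of all genes tested) and 2 were higher (16.4%), and the median log2 fold change was -0.46 both in the set and in all genes, which turned to 0.01 in the set with median-ratio scaling. Libraries did not overlap in 63 lower (65.4%) and 6 higher genes (18.6%), the latter Mrpl13, Mrpl14, Mrpl27, Mrpl39, Mrpl54 and Mrps18c. The genes that rose were Mrpl27, from 19.6 ± 1.62 (SD, n = 3) to 25.3 ± 0.686 FPKM (log2 fold change 0.35, limma adjusted p = 0.001415), and Mrpl54, from 19.6 ± 0.599 to 24.7 ± 3.36 FPKM (0.31, adjusted p = 0.01632). With upper-quartile, quantile and median-ratio scaling, 13, 25 and 11 genes of the set were lower (29.9%, 38% and 28.8% of all genes) and 14, 16 and 14 higher (31.1%, 24.7% and 32.1%). Mrpl27 and Mrpl54 were higher under all 5 scalings (15.9% of all genes were), and the Mrpl54 call was lost without M+AnxA5 replicate 1 (adjusted p = 0.05825) or 3 (0.05289). Lower under all 5 scalings were 10 genes (27.2% of all genes), the 8 named above for Model and in addition Mrpl37 and Mrps5.

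Mrpl37, a large-subunit protein particular to mitochondria, had 7.03, 6.86 and 6.62 FPKM in Control, 3.88, 3.76 and 3.63 in Model and 3.57, 3.28 and 3.71 in M+AnxA5. Mrps5, the homologue of bacterial S5 and part of the decoding region, had 2.95, 3.34 and 2.97 FPKM in Control, 1.82, 1.58 and 1.63 in Model and 1.32, 1.46 and 1.39 in M+AnxA5. The lowest log2 fold changes of M+AnxA5 against Control among genes of at least 5 FPKM were those of Mrpl42 (-1.05), Mrps25 (-1.01), Mrpl28 (-0.96), Mrps21 (-0.95), Mrpl50 (-0.94) and Mrpl41 (-0.82). Beside Mrpl27 and Mrpl54, the highest were those of Mrps18c (0.24), Mrpl39 (0.15), Mrpl52 (0.15) and Mrpl14 (0.15), none of which was called.

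The rest of the mitochondrial translation machinery was read from lists written from general knowledge. For each list the background in Model against Control is 60.3% of all genes lower and 16.5% higher as deposited, with a median log2 fold change of -0.45, and 29.9% lower and 31.8% higher with upper-quartile scaling. With quantile normalization it is 36.6% lower and 24.9% higher. The 5 other subunits of the mitochondrial ribosome, whose symbols do not follow the Mrp pattern, were near the set: 3 fell in Model and none rose, with a median log2 fold change of -0.42, while with upper-quartile and median-ratio scaling none fell and 1 rose. Gadd45gip1, a large-subunit protein also known for a role in the cell cycle, went from 6.90 to 4.21 FPKM (-0.60, limma adjusted p = 0.0002696), and Ptcd3, a small-subunit protein with pentatricopeptide repeats, from 3.75 to 2.56 FPKM (-0.42, adjusted p = 0.0004022). In M+AnxA5 against Model none of these 5 was called by limma, nor passed an unadjusted p under 0.05.

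Of 25 factors tested that assemble the mitochondrial ribosome or modify its RNA, 22 fell and 1 rose as deposited (median -0.49, against -0.45 in all genes), and 6 and 3 did so with upper-quartile scaling (29.9% and 31.8% of all genes). Rbfa, which matures the small subunit, had 27.6, 29.0 and 29.0 FPKM in Control, 8.69, 8.73 and 9.32 in Model and 6.27, 7.55 and 7.68 in M+AnxA5 (Model against Control -1.57, adjusted p = 6.432e-08). C1qbp, a matrix protein needed for mitochondrial translation, had 17.4, 18.0 and 16.4 FPKM in Control and 7.72, 7.68 and 7.39 in Model (-1.09, adjusted p = 8.648e-08). Both were lower in every Model library than in any Control library. Of 15 translation factors, 13 fell and none rose as deposited (median -0.50), and 4 fell with upper-quartile scaling. Guf1, a mitochondrial elongation factor, went from a mean of 2.68 to 0.643 FPKM (-1.17, adjusted p = 3.049e-06), and 2810006K23Rik from 3.22 to 1.36 FPKM (-0.84, adjusted p = 4.391e-06).

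The RNA side of the mitochondrial ribosome and its templates was read from the same libraries, which were made from poly(A) RNA. The ribosomal RNAs mt-Rnr1 and mt-Rnr2 were not called, and both were highest in library 2 of each group, for mt-Rnr1 at 297, 191 and 191 FPKM. Of the 13 messenger RNAs of the mitochondrial genome, 10 fell and none rose as deposited (60.3% and 16.5% of all genes, median -0.61), while with upper-quartile scaling 1 fell and 2 rose. With quantile normalization 9 of the 13 messenger RNAs fell and 1 rose (36.6% and 24.9% of all genes, median -0.41). Among them mt-Nd2 went from 855 to 497 FPKM (-0.78, limma adjusted p = 7.587e-07) and mt-Nd3 from 204 to 92.6 FPKM (-1.13, adjusted p = 1.973e-06), both subunits of respiratory complex I. Of 23 genes of mitochondrial transcription and RNA handling, 17 fell and 2 rose (median -0.55), and 3 and 5 did so with upper-quartile scaling. Pnpt1, an exonuclease of mitochondrial RNA that is known to be induced by interferon, rose from 9.56 to 19.6 FPKM (0.96, adjusted p = 2.175e-07), and Tfb2m, an initiation factor of the mitochondrial RNA polymerase, fell from 6.65 to 2.77 FPKM (-1.02, adjusted p = 2.532e-07).

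Regulators of nuclear genes for mitochondria went in both directions, with 4 of 11 higher and 5 lower as deposited (16.5% and 60.3% of all genes) and 4 higher and 2 lower with upper-quartile scaling. Esrra, a nuclear receptor, rose from 9.37 FPKM in Control to 20.7 in Model, a log2 fold change of 1.07 (limma adjusted p = 3.041e-08), and Ppargc1b, its coactivator, rose likewise, at 0.780 FPKM in Control and 2.83 in Model (1.11, adjusted p = 8.828e-07). Of 21 markers of mitochondrial mass, 5 rose and 6 fell as deposited (median -0.08), and 15 rose and none fell with upper-quartile scaling (31.8% and 29.9% of all genes). With quantile normalization 6 of these markers rose and 5 fell (24.9% and 36.6% of all genes, median -0.03). Tomm20, a receptor for imported proteins, fell from 22.1 to 12.3 FPKM (-0.80, adjusted p = 2.695e-07) and Phb, an inner membrane scaffold, by 0.74 on the log2 scale (adjusted p = 8.1e-07), and both calls are as deposited. In M+AnxA5 against Model, limma called no gene of any of these lists. At an unadjusted p under 0.05 the counts there were 3 lower of the mass markers, 1 higher and 3 lower of the regulators, 1 higher and 1 lower of the transcription and RNA genes, and 1 lower each of the assembly factors and the mitochondrial messenger RNAs.

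Set beside the proteins of the cytosolic ribosome, which makes the mitochondrial ribosomal proteins themselves, the set was less shifted. Of 80 cytosolic ribosomal protein genes tested, 76 fell in Model (60.3% of all genes, median -0.92), and with upper-quartile scaling 50 fell and 2 rose (median -0.36). With quantile normalization 76 fell and none rose (36.6% and 24.9% of all genes, median -1.14). The summed FPKM of the 78 mitochondrial genes per 1000 FPKM of 82 cytosolic ones was 66.0, 68.3 and 66.3 in Control, 92.0, 96.3 and 91.2 in Model and 84.7, 87.1 and 84.9 in M+AnxA5. The 3 groups did not overlap in this ratio, which scaling a library by a single factor does not change, with Model highest and M+AnxA5 between Model and Control. In M+AnxA5 against Model the cytosolic genes had a median log2 fold change of 0.08 and the set one of -0.03. No cytosolic gene was called there. By limma at an unadjusted p under 0.05, 17 of the 80 were higher and none lower, where 17% of all genes passed in either direction. The difference between both sets of genes was not tested.

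Many of the 78 genes start close to another gene that is read the other way. A diverging protein-coding neighbour, whose start lies on the opposite strand at most 1000 bases upstream or at most 200 bases inside the gene, was present for 23 of 78 genes (29.5%), against 7.94% of 21951 protein-coding genes. With opposite starts up to 1000 bases on either side, which adds overlapping pairs such as Mrps11 and Mrpl46, it was 33 of 78 (42.3%, against 10.9%). With a diverging neighbour 15 of 23 genes fell in Model (median -0.41), and without one 36 of 55 did (median -0.41). By the wider rule it was 21 of 33 (median -0.40) and 30 of 45 (median -0.41), where 60.3% of all genes fell. Of the 17 neighbours that were tested, 10 fell and 3 rose (60.3% and 16.5% of all genes), and in 8 pairs both genes fell as deposited. The share of such pairs over all genes was not computed, so the 8 pairs show no shared control. Klc4, a kinesin light chain beside Mrpl2, went from 30.6 to 3.57 FPKM (-2.79, limma adjusted p = 2.065e-09), while Mrpl2 went from 15.2 to 10.6 FPKM (-0.49). Psma2, a proteasome subunit beside Mrpl32, rose from 21.9 to 31.8 FPKM (0.51, adjusted p = 2.303e-06), while Mrpl32 stood at 2.36 and 2.01 FPKM and was not called. Sars2, the mitochondrial seryl-tRNA synthetase beside Mrps12, went from 2.15 to 1.41 FPKM (-0.39, adjusted p = 0.001651) as Mrps12 went from 10.5 to 6.70 FPKM (-0.59). In M+AnxA5 against Model, 1 neighbour was called, Pnpla7 beside Mrpl41, which rose (0.30, adjusted p = 0.0272) while Mrpl41 did not pass (0.05).

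By promoter letters, the genes with the GABP letters had a median log2 fold change of -0.31 in Model against Control with 14 of 25 lower, those with the NRF1 letters -0.30 with 5 of 8 lower, those with the YY1 letters -0.67 with 6 of 8 lower, and those with none of the strings -0.42 with 25 of 34 lower. These are descriptions beside 60.3% of all genes lower and a median of -0.45 over all genes, and no difference between them was tested. Mrpl42, printed above with the YY1 letters, was the lowest of its group, and Mrps25 the lowest of those without any.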

How the data were processed

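The authors deposited 1 table of FPKM for 9 BMDM libraries, which is not a table of counts, and upstream steps were not repeated. The submitters' processing notes list cutadapt 1.9, StringTie 2.1.6, STAR and the build mm10 among the tools, without saying what each did. Of 55335 gene IDs, 55154 were found in GENCODE M21 (GRCm38), the source of the positions. Genes that reached 1 FPKM in 3 or more of 9 libraries entered limma 3.58.1 (R 4.3.3, trend, all 9 libraries in 1 fit, no replicate block) on log2(FPKM + 1). Adjustment was by Benjamini-Hochberg over 11657 genes. Calls needed both an adjusted p under 0.05 and a fold above 1.2, and errors beside FPKM are SDs. Depth was estimated from the smallest steps between low values.

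Genes named were, per comparison, the 6 highest and 6 lowest log2 fold changes among genes whose mean reached 5 FPKM in either group, the 5 highest and 3 lowest levels, every gene called in M+AnxA5 against Model, and per list the 2 called genes with the lowest adjusted p. Genes lower under all scalings, genes without overlap, list members with other values and neighbours were named after their values were seen. The genes and lists were chosen with earlier results of these data known. Alternatives were other pseudocounts, filters, scalings, empirical Bayes settings, fold thresholds, 6 libraries in the fit, a replicate block, and leaving out libraries. The steps were tested on simulated data for M+AnxA5 against Model, with 200 changed genes of 11657 in each of 5 rounds. Calls recovered 55.2% of changes of 1.3-fold, 72% of 1.5-fold and 92.8% of 2-fold, and 4% of calls were unchanged genes. Small changes can therefore be missed.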

Additional observations from a re-analysis of the deposited data

How the results depend on the processing

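The direction of the set in Model against Control, and in M+AnxA5 against Control, rests on the scaling. In Model against Control the number called higher, 0 as deposited, was 3 with TPM, 18 with upper-quartile, 17 with quantile and 20 with median-ratio scaling, 4 with no fold threshold, and 0 to 1 when single libraries were left out. The number called lower, 51, was 9, 20 and 9 with upper-quartile, quantile and median-ratio scaling, 29 of 45 genes tested with a mean of at least 5 FPKM, 25 with a fold over 1.5, and 48 to 54 without single libraries. Among all genes, 3049 of 5874 were lower with a mean of at least 5 FPKM and 4589 of 11657 with a fold over 1.5. With no fold threshold 2120 of 11657 were higher. Without single libraries, 5807 to 7028 of 10518 to 11626 genes tested were lower and 1884 to 1911 higher. The median of -0.41 was -0.49 and -0.45 with pseudocounts of 0.1 and 0.5, -0.39 with TPM, and turned to 0.052, 0.008 and 0.066 with upper-quartile, quantile and median-ratio scaling, which also moved the median of all genes from -0.45 to -0.001, -0.11 and 0.01. In M+AnxA5 against Control the 2 higher were 14, 16 and 14 with these 3 scalings, 0 with a fold over 1.5 and 1 to 3 without single libraries. The 58 lower were 13, 25 and 11, 32 with a mean of at least 5 FPKM and 28 with a fold over 1.5. Among all genes, 3132 of 5874 were lower with a mean of at least 5 FPKM. With a fold over 1.5, 4674 of 11657 were lower and 1421 higher, and without single libraries 1869 to 1920 genes were higher. The median of -0.46 was -0.57 and -0.53 with the pseudocounts, -0.0043, -0.095 and 0.015 with the 3 scalings, and -0.505 without the 3 libraries numbered 2. The cause was not tested.

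In M+AnxA5 against Model the 1 higher gene, Mrps25, became 0 with no filter, with 6 libraries in the fit, with a fold over 1.5, without the 3 libraries numbered 2 (adjusted p = 0.272), and with a mean of at least 5 FPKM, where it was not tested; without single libraries the count was 0 to 1. Without single libraries the log2 fold change ran from -0.287 to 0.043 for Mrps21 (the latter without M+AnxA5 replicate 3) and from -0.036 (without M+AnxA5 replicate 2) to 0.179 for Mrps24, which was -0.064 without the libraries numbered 2. Over these alternatives, the values of the genes named by rule in each comparison were tallied. Of these, 3 changed direction, 820 kept direction and call, 42 gained and 18 lost the call. Other genes are not in this tally, and the direction of most genes in Model against Control depended on the scaling. The 18 include the losses already described for Mrps25, Mrpl54 and Mrps21.

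For pairing, the deviations of each library from its group mean were correlated across genes. Same-numbered libraries gave 0.040 to 0.206 in Model against Control, 0.061 to 0.123 in M+AnxA5 against Model and 0.016 to 0.074 in M+AnxA5 against Control. Libraries of different number gave -0.232 to 0.099, -0.088 to 0.001 and -0.101 to 0.075 in the same order. In M+AnxA5 against Model every same-numbered value was thus above every other. Whether equal numbers share an effect was not tested. No pairing of the sequenced libraries is stated, so the main fit held no block. With a replicate block the counts were 51 lower and 0 higher in Model against Control, 0 either way in M+AnxA5 against Model (Mrps25 adjusted p = 0.0591) and 58 lower and 2 higher in M+AnxA5 against Control.

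The table holds no counts, so no counting error is given for single values. Median-ratio scaling and the wider neighbour rule were chosen after seeing the data. Where a group is left with 2 libraries, it shares the spread of the others.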
